A study of Mus musculus with 13 samples.

Results

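The passage of thymocytes from the DN3 to the DN4 stage was followed across the transcriptome in mice labelled OPA1 KO. It is described by 6 of the 13 libraries of the series, the DN3 and DN4 libraries of mice KO45, KO49 and KO51, joined by the mouse number in the column names. The KO-labelled mice were Opa1fl/fl;Lck-Cre+ and the Wt mice were WT;Lck-Cre+, both on a C57BL/6 background and 6 weeks old, so Cre recombinase was present in both genotypes. Lck-Cre is driven by a promoter of developing T cells, and other cells of the thymus keep both copies of Opa1. DN3 and DN4 thymocytes were freshly sorted and untreated. The same passage in the 6 libraries of the Wt mice WT05, WT46 and WT48 served for comparison, and a 13th library, DN4 of the Wt mouse WT40, had no DN3 partner and entered no test. Read counts of genes were measured by sequencing of stranded mRNA libraries, and the KO-labelled libraries held 7141918 to 10990016 counts in DN3 and 9565303 to 14148661 in DN4.

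Double negative (DN) thymocytes carry neither CD4 nor CD8. At DN3, which is CD25+, the T cell receptor β chain (Tcrb) locus is rearranged under NOTCH signaling, and a cell whose β chain pairs with the invariant pre-TCRα chain signals through the pre-TCR. This checkpoint, β-selection, ends CD25 expression, drives proliferation and leads through DN4 and an immature single positive stage to double positive (DP) cells with CD4 and CD8. OPA1 is a GTPase of the inner mitochondrial membrane that fuses inner membranes and shapes cristae.

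The transcript counted for Opa1 was present in all KO-labelled libraries. Levels are given throughout as CPM, counts scaled to a common library size with TMM factors, in the order KO45, KO49 and KO51. Opa1 had 97.1, 98.9 and 94.5 CPM in DN3 and 79.9, 86.1 and 92.8 CPM in DN4, a log2 fold change of -0.17 (SE 0.090, adjusted p = 0.176; each adjusted p is from the quasi-likelihood test of edgeR, blocked by mouse). Wt libraries held 85.5 to 112 CPM. A count over the whole gene still takes reads from exons outside a floxed segment, so it does not check the deletion, and the libraries are called KO-labelled for that reason. Opa1 (ENSMUSG00000038084.16) lies on chromosome 16 from 29579334 to 29654884 in GRCm38, on the plus strand.

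The DN4 libraries differed from each other in several groups of transcripts that mark other cells or stages. The 12 B cell markers summed to 372, 357 and 402 CPM in DN3, most of it Ighm, and to 2750, 4160 and 1050 CPM in DN4, and none was at 0 in all libraries. Ms4a1, which encodes CD20, had 8, 8 and 2 counts in DN3 against 1868, 3437 and 271 in DN4. B cell transcripts were therefore lowest in KO51 and highest in KO49. The 11 DP markers, which include Cd4, Cd8a and Rag1, summed to 2030, 1770 and 1640 CPM in DN3 and to 6320, 1990 and 2740 CPM in DN4, so KO45 stood above both other mice in DN4. In DN4 the DN1 and DN2 markers summed to 178, 277 and 64.3 CPM and the myeloid markers to 25.3, 37.0 and 6.06 CPM. NK and innate lymphoid markers (11 genes) summed to 315, 348 and 301 CPM in DN3 and 360, 499 and 482 CPM in DN4, most of it Gzma, and Ncr1 had 0 counts in DN3 and 8, 52 and 2 in DN4. Of the markers that passed the filter on low counts, 11 of 11 B cell markers were called higher, as were 7 of 9 NK and innate lymphoid markers, 4 of 7 γδ T cell markers (7 without KO45; summed level 533 to 733 CPM in DN3 and 1050 to 1110 CPM in DN4), and 6 of 11 DP markers with 2 lower. Among plasmacytoid dendritic, DN1 and DN2, myeloid and stromal markers, 4 of 8, 5 of 6, 1 of 2 and 1 of 3 tested were higher, and 3, 1, 1 and 1 were lower. Several of these genes had 0 to 8 counts in each DN3 library and so passed the filter through DN4 alone, where they had to be higher, so these counts are a description. Over all genes tested, 35.8% were called, 18.9% higher and 16.9% lower. Only 8 of the 11 γδ T cell markers were found by name. The 4 constant genes of the γ locus, annotated under other names, fell (median -2.06) and enter neither the count nor the sum. The 9 erythroid markers summed to at most 2.06 CPM, and the defining myeloid and stromal transcripts Csf1r and Foxn1 had 0 to 9 counts in each KO-labelled library. Other members of those lists were present, with 242, 457 and 49 counts of Ly6c2 in DN4, 82 to 118 counts of Lyz2 in DN3 and 758 to 2370 counts of Pecam1 over both stages. The 4 Wt DN4 libraries also held B cell markers, 1220 to 6600 CPM against 166 to 462 CPM in Wt DN3. In these bulk libraries, fewer cells of a type and less RNA per cell cannot be told apart.

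**Figure D1:**
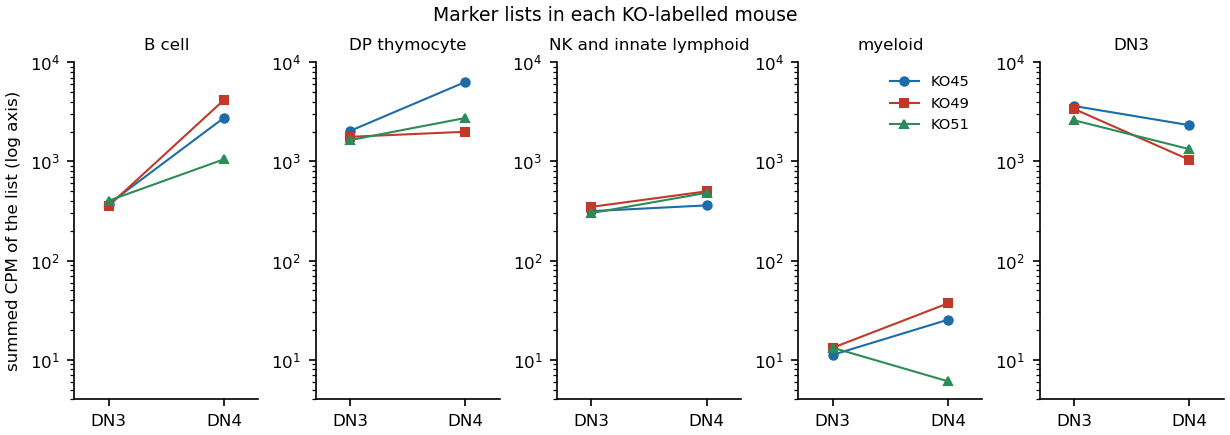
Summed CPM of 5 marker lists (log axis) in the DN3 and DN4 library of each KO-labelled mouse, with a line for each mouse. B cell markers reached 1050 to 4160 CPM in DN4 with KO49 highest, DP markers reached 6320 CPM in KO45, and DN3 markers fell in all 3 mice.

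The summed level of DN3 markers was lower in DN4 than in DN3 in every KO-labelled mouse. Of 10 DN3 markers, 8 were called lower in DN4 and none higher, against 16.9% and 18.9% of all genes tested. Their sum was 2600 to 3620 CPM in DN3 and 1040 to 2320 CPM in DN4. The 10 include Bst1 and Erg, markers chosen for this transition, and Rag1, also counted as a DP marker. They are therefore no independent check of the stage label. Il2ra, which encodes CD25 and so defines the gate, had 15152, 10046 and 8357 counts in DN3 and 337, 266 and 110 counts in DN4. Its fall is a property of the sort and not a finding.

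Between DN3 and DN4, 4499 of 12580 genes tested were called at an adjusted p under 0.05, which is 35.8% (n = 3 mice per stage). Of these, 2378 genes rose (18.9% of those tested) and 2121 fell (16.9%). With the filter used, larger changes were more often rises. With a log2 change of at least 1 in size, 1036 genes rose and 611 fell, and with a change of at least 3, 337 rose and 86 fell. A gene that passed the filter through 1 stage alone had to be higher in that stage, so these counts are a description. With at least 10 counts required in every library, 1918 genes were called higher and 2064 lower. The 2 stages did not overlap in 4871 genes (38.7%), and 4489 of the 4499 called genes moved the same way in all 3 mice. Without the mouse as a block, 2338 genes were called, all of them among the 4499. The stage accounted for 72.2% of the variance of log2 CPM over the genes tested, the mouse for 19.4% and the remainder for 8.37%. Where genes whose DN4 level in KO49 was at least 3 times that in KO51 were left out, 2135 genes rose and 2081 fell.

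**Figure D2:**
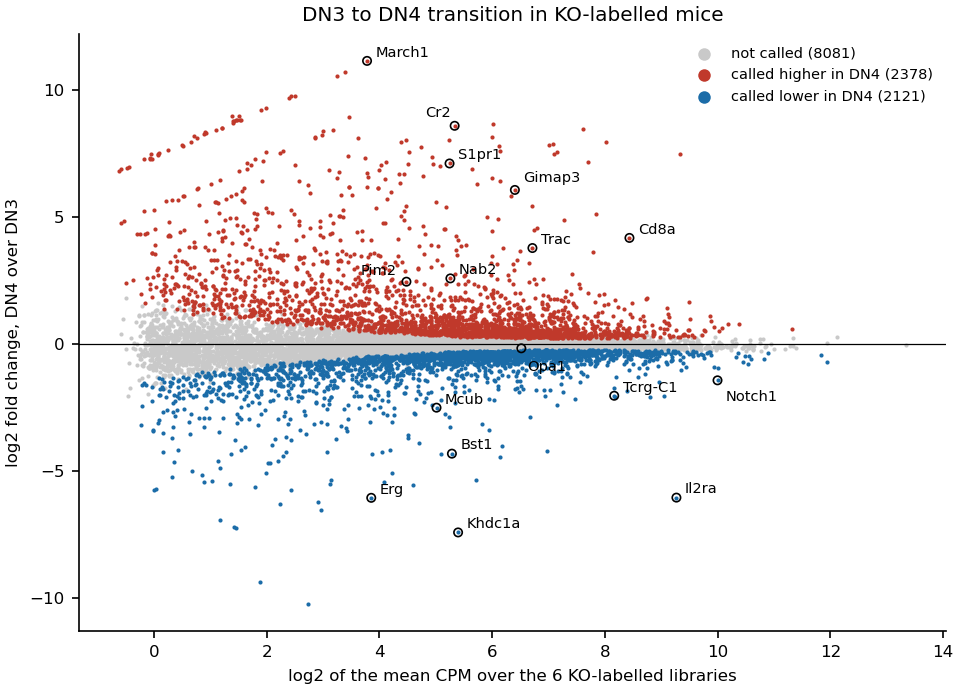
Log2 fold change from DN3 to DN4 in the KO-labelled mice against the log2 of the mean CPM over the 6 libraries, for 12580 genes. Red points are the 2378 genes called higher in DN4, blue points the 2121 called lower and grey points those not called; the uppermost diagonal line of points at the left is genes at 0 counts in DN3, whose fitted changes depend on the prior count and give no size.

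4 genes marked the transition. Bst1 encodes an ectoenzyme that uses NAD+ on the surface of immature lymphocytes. Bst1 had 88.7, 73.5 and 60.6 CPM in DN3 and 3.64, 3.58 and 3.995 CPM in DN4 (log2 fold change -4.31, SE 0.16, adjusted p = 2.22e-07). The 3 DN4 libraries lay close together and far below every DN3 library. Erg encodes an ETS factor of hematopoietic stem cells and early T cell progenitors. Erg had 37.6, 28.6 and 19.3 CPM in DN3 and 0.595, 0.439 and 0.2103 CPM in DN4 (log2 fold change -6.05, SE 0.25, adjusted p = 4.53e-07). In counts this was 416, 204 and 186 in DN3 against 8, 6 and 2 in DN4, so the transcript was all but lost in each mouse.

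The other two markers rose. Pim2 encodes a serine/threonine kinase that supports growth and survival downstream of cytokine and antigen receptors. Pim2 had 7.41, 6.73 and 6.42 CPM in DN3 and 36.96, 40.4 and 35.7 CPM in DN4 (log2 fold change 2.45, SE 0.15, adjusted p = 4.94e-06). Nab2 encodes a corepressor that binds EGR factors and is itself induced by them. Nab2 had 9.22, 11.2 and 12.4 CPM in DN3 and 64.4, 73.3 and 58.99 CPM in DN4 (log2 fold change 2.58, SE 0.14, adjusted p = 2.53e-06). In DN4 both genes were at similar levels in the 3 mice, unlike the B cell and DP transcripts. Nab2 overlaps Stat6, and Bst1 overlaps Fbxl5, on the opposite strand, and the sources used here do not say whether counting used the strand, so reads of these pairs cannot be fully told apart. In GRCm38, Bst1 (ENSMUSG00000029082.17) lies on chromosome 5 from 43818885 to 43843986, Erg (ENSMUSG00000040732.18) lies on chromosome 16 from 95359169 to 95586593, Pim2 (ENSMUSG00000031155.14) lies on chromosome X from 7878262 to 7883432 and Nab2 (ENSMUSG00000025402.12) lies on chromosome 10 from 127660918 to 127668568.

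**Figure D3:**
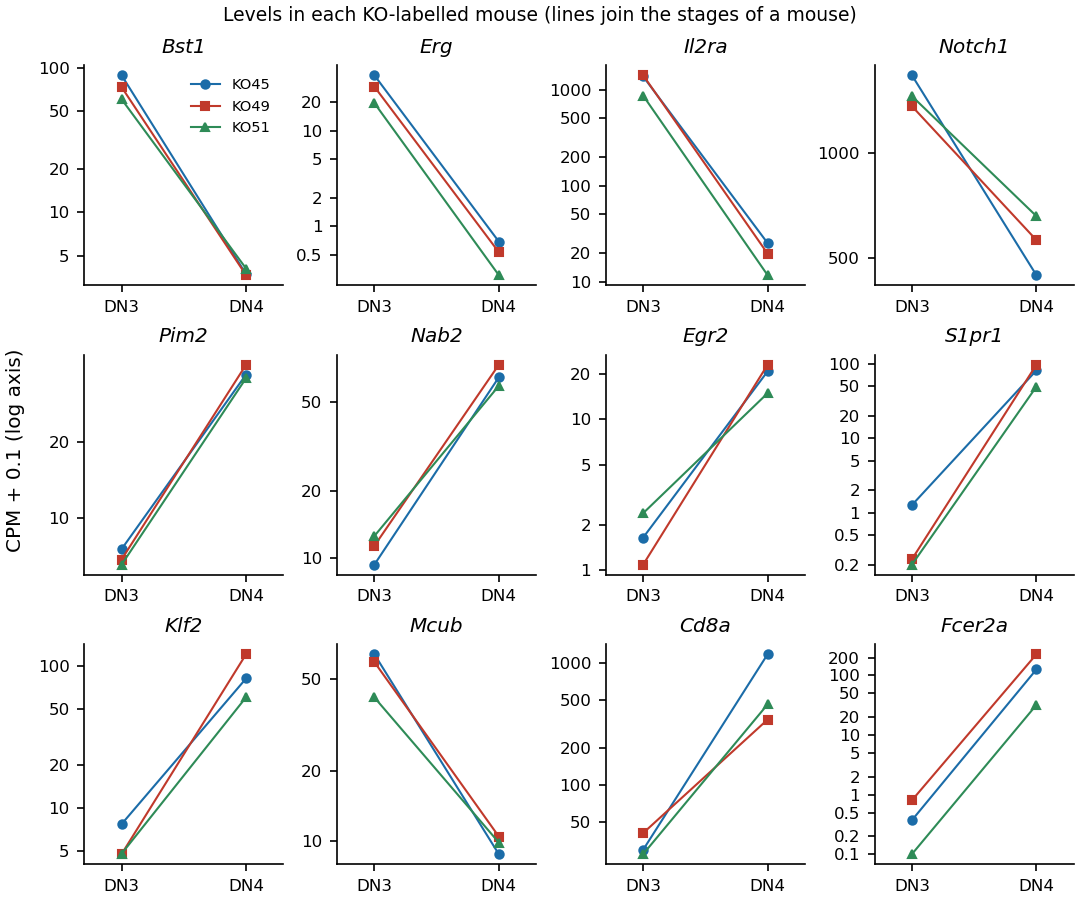
CPM + 0.1 (log axes) of 12 genes in the DN3 and DN4 library of each KO-labelled mouse; each panel has its own scale. Bst1, Erg, Il2ra, Notch1 and Mcub fell in all 3 mice and the other genes rose, evenly over the mice for Pim2 and Nab2 and with KO49 highest for Fcer2a and KO45 highest for Cd8a.

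RefSeq's promoter windows (GRCm38.p6) run from 250 bases before to 50 bases after a transcript's start, 5′ to 3′ on the gene's strand, and 1 window a gene was used, the first listed, which need not hold the gene's outermost start. For Erg and Pim2 the window holds the gene's annotated start. They are printed to show the letters in which motifs of the factors below were looked for, with Klf2, Mcub and Opa1 as windows that hold one each; capitals mark the match.
Erg (chr16:95586544-95586843, minus strand): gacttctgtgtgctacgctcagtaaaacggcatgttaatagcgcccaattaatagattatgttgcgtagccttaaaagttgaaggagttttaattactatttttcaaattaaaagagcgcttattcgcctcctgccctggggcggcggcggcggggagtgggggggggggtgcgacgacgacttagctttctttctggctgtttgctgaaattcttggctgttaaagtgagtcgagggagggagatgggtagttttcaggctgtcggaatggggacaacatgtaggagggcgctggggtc
Pim2 (chrX:7878056-7878355, plus strand): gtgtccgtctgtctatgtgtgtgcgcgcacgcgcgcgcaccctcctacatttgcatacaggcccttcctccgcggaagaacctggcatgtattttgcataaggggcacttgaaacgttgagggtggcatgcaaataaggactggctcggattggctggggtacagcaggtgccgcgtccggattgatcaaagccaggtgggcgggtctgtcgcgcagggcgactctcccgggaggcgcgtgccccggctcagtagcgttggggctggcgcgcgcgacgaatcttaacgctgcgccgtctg
Klf2 (chr8:72318812-72319111, plus strand): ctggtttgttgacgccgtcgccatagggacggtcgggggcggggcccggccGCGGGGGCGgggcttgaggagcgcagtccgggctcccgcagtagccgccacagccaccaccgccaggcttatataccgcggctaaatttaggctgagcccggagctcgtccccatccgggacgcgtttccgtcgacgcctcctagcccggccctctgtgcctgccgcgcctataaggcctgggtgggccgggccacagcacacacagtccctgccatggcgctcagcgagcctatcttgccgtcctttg
Mcub (chr3:129970157-129970456, minus strand): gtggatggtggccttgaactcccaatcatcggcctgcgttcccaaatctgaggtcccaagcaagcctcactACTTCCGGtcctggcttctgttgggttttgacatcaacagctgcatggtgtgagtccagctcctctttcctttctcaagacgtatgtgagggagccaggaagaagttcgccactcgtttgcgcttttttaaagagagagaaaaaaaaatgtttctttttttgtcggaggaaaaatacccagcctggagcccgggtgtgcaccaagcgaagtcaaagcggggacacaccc
Opa1 (chr16:29579084-29579383, plus strand): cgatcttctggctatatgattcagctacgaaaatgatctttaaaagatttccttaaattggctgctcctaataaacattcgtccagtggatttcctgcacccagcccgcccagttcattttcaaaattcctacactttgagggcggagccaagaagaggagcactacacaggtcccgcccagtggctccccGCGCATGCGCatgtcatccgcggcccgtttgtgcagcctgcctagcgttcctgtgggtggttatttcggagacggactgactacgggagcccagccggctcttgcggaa

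8 short motifs were searched on both strands. They were ETS CCGGAAGT, the palindromic NRF1 motif, E2F TTTCCCGC, EGR GCGNGGGCG, RBPJ GTGGGAA (the DNA-binding partner of NOTCH), KLF CCACACCC, RUNX TGTGGT and TCF CTTTGAA. The windows of Erg and Pim2 held none of them, Klf2 held the EGR letters 199 bases before its start, Mcub the ETS letters at 179 bases and Opa1 the NRF1 letters at 59 bases before it. Windows were found for 9224 of the genes tested. The ETS letters stood in 10.6% of the windows of genes that were not called, in 2.07% of those of genes that rose by at least 1 on the log2 scale and in 2.89% of those that fell as far. NRF1 letters followed the same order with 2.73%, 0.552% and 0.964%, and E2F letters with 2.44%, 0.69% and 0.964%. EGR letters (9.96%, 11% and 7.71%) and RBPJ letters (6.19%, 5.93% and 6.51%) differed less between these groups. In the same order, KLF letters stood in 3.67%, 5.93% and 4.34%, TCF letters in 3.6%, 4.83% and 5.06% and RUNX letters in 12.6%, 15.3% and 13%. Over the windows of all 27025 genes in the table the ETS letters stood in 4.0%. These shares describe the windows and were not tested, and a match is not a binding site.

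Among protein-coding genes with at least 10 CPM in the higher stage and no overlap between stages, the 12 with the largest falls were Khdc1a, Muc13, Erg, Il2ra, Scin, Mst1r, Fndc1, Mpzl2, Itgb4, Bst1, Tshz2 and Ctla2a. Their log2 fold changes ran from -7.41 to -4.26. Khdc1a had 149.6, 66.2 and 35.2 CPM in DN3 and 0.446, 0.658 and 0.315 CPM in DN4 (log2 fold change -7.41, SE 0.25, adjusted p = 1.48e-07), so the mice differed by several-fold at DN3 and all were near 0 at DN4. Scin had 29.8, 63.3 and 48.2 CPM in DN3 and 0.595, 1.097 and 1.37 CPM in DN4, where Scin encodes an actin-severing protein (log2 fold change -5.54, SE 0.21, adjusted p = 2.53e-07). Mpzl2, an adhesion molecule of the thymus, had 101, 178 and 124 CPM in DN3 and 3.94, 6.43 and 8.31 CPM in DN4 (log2 fold change -4.45, SE 0.17, adjusted p = 3.07e-07). Itgb4, the integrin β4 chain, had 96.6, 56.1 and 42.7 CPM in DN3 and 4.54, 1.97 and 3.26 CPM in DN4 (log2 fold change -4.33, SE 0.20, adjusted p = 7.89e-07). Khdc1a and Ctla2a have close paralogs, between which counting could divide reads.

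By fitted change, which for a gene at 0 counts in DN3 depends on the prior count, the 12 largest rises were in March1, Pxdc1, Ffar1, Tdrp, Fcer2a, Cr2, H2-Eb1, Cacna1e, Col6a4, Fcmr, Cd40 and Cacna1i. Several are B cell genes, among them Fcer2a (CD23), Cr2 (CD21), H2-Eb1 (an MHC class II chain), Fcmr (an IgM receptor) and Cd40. Fcer2a had 0.271, 0.701 and 0 CPM in DN3 and 126, 227 and 31.96 CPM in DN4 (log2 fold change 8.65, SE 0.21, adjusted p = 2.04e-08). Cr2 had 0.362, 0.1403 and 0 CPM in DN3 and 71.5, 152 and 17.7 CPM in DN4 (log2 fold change 8.58, SE 0.29, adjusted p = 1.31e-07). Fcer2a is itself one of the B cell markers, and Cr2 had the same order of mice in DN4. March1, Pxdc1 and Ffar1 had 0 counts in all 3 DN3 libraries, so with a floor of 3 counts over the group they were at least 276-fold, at least 211-fold and at least 190-fold higher in DN4.

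The order KO49, KO45, KO51 in DN4 was common among large rises. It held for 202 of the 337 genes that rose by at least 3 (59.9%), for 272 of the 699 that rose by 1 to 3 (38.9%) and for 2133 of all 12580 genes tested (17%). Of 243 immunoglobulin genes listed, 33 passed the filter on low counts, and all 33 had this order in DN4. A gene that passed only through DN4 had to be higher there, so their direction is not counted as a result. Of the same 337 genes, 148 were at least 3 times higher in KO49 than in KO51 in DN4 (43.9%, against 3.14% of all genes), and 20 were at least 2 times higher in KO45 than in both other mice. In the 337, DN4 libraries were within 2-fold of each other for 106 genes (31.5%), against 85.7% of all genes.

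Of the 162 protein-coding genes that rose by at least 3 and reached a mean of 10 CPM in DN4, 37 were within 2-fold over the 3 mice in DN4. These were chosen after their values were seen. The largest rise among them was in S1pr1, the sphingosine 1-phosphate receptor through which T cells leave lymphoid organs. S1pr1 had 1.18, 0.1403 and 0.104 CPM in DN3 and 80.8, 96.2 and 48.9 CPM in DN4 (log2 fold change 7.1, SE 0.32, adjusted p = 7.89e-07). Trpm1, a cation channel, had 17.6, 22.5 and 25.3 CPM in DN4 (log2 fold change 6.19), and Cd7, an early T cell surface protein, 34.5, 46.1 and 40.7 CPM (log2 fold change 5.05). Il2rb, the β chain shared by the IL-2 and IL-15 receptors, had 7.68, 1.12 and 1.76 CPM in DN3 and 97.2, 135 and 118 CPM in DN4 (log2 fold change 4.98, SE 0.42, adjusted p = 2.78e-05). Others were Adam19, Il6ra, Pacsin1, Cxcr6, Nt5e (CD73), Ccr7, Itgb7, Gimap3, Gimap8, Egr2, Cd226, St6gal1, Itgae and Cd2. Il2rb is also one of the NK and innate lymphoid markers above, and Pacsin1 one of the plasmacytoid dendritic markers. The part of such cells in these rises was not tested.

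Most NOTCH receptors and targets tested fell. Of 12, 10 fell and 1 rose, with a median log2 fold change of -1.31 against -0.03 over all genes (91.7% called, against 35.8% of all genes), and the 10 include Il2ra, on which the gate was set. Notch1 had 1659, 1355 and 1447 CPM in DN3 and 448, 564 and 659.6 CPM in DN4 (log2 fold change -1.43, SE 0.14, adjusted p = 7.46e-05). Notch3 had 672, 391 and 353 CPM in DN3 and 151, 81.7 and 98.6 CPM in DN4 (log2 fold change -2.08, SE 0.10, adjusted p = 1.01e-06). The receptors fell in every mouse without overlap. Hes1, a repressor that NOTCH switches on directly, fell furthest after Il2ra, from 80.5, 69.6 and 55.4 to 4.24, 9.94 and 7.68 CPM (log2 fold change -3.27, SE 0.25, adjusted p = 1.69e-05). Falls were also called for Dtx1 (-1.22), Heyl (-1.4), Nrarp (-0.85), Igf1r (-1.06) and Myc (-1.01), while the glycosyltransferase Lfng, which makes NOTCH receptive to Delta ligands, rose (0.72). Without the block none rose and 8 fell, as Nrarp (adjusted p = 0.145), Heyl (0.139) and Lfng (0.0756) lost their calls. Nrarp was not called by DESeq2, without KO45 or without KO49 either.

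The 11 progenitor regulators that passed the filter on low counts were called, in 2 directions (100%, against 35.8% of all genes). Lmo2, with 2, 1 and 7 counts in DN3, passed through DN4. Erg, Nfe2 (-3.41), Mycn (-2.07), Hoxa7 (-1.6) and Kit (-0.97) fell. Lmo2 (6.16), Mef2c (3.87), Hhex (3.01), Lyl1 (2.88), Bcl11a (1.91) and Spi1 (1.33) rose. Mef2c had 4.25, 3.51 and 2.59 CPM in DN3 and 59.4, 115 and 12.1 CPM in DN4, and Lmo2 had 0.181, 0.1403 and 0.725 CPM in DN3 and 28.6, 56.1 and 7.99 CPM in DN4. All 6 genes that rose had the DN4 order of the B cell markers, with KO49 highest and KO51 lowest, and most of them are also expressed in B cells. The part of the B cell transcripts in these rises was not tested. Of these risers, Hhex, Lmo2 and Mef2c also had an adjusted p under 0.05 without the block, and with KO49 left out 5 of the 6 rises were called.

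Transcription factors of the T lineage changed in both directions. Of 19 tested, 10 rose and 5 fell (78.9%, against 35.8% of all genes), with a median of 0.41. Without the block 9 rose and 1 fell, and without KO49 10 rose and 3 fell. Zbtb7b, which encodes the CD4 lineage factor ThPOK, had 0.814, 0.281 and 0.518 CPM in DN3 and 30.6, 18.5 and 7.68 CPM in DN4 (log2 fold change 5.03, SE 0.34, adjusted p = 8.22e-06). At these DN3 levels Zbtb7b passed the filter on low counts through DN4 alone, where it had to be higher. Rises were also called for Ikzf3 (2.35), Tox2 (1.59), Satb1 (1.08), Ets2 (0.86) and Ets1 (0.66). Runx1 fell from 297, 274 and 248 to 106, 128 and 126 CPM (log2 fold change -1.18, SE 0.11, adjusted p = 4.15e-05), and Myb (-0.74), Gfi1 (-0.43), Bcl11b (-0.36) and Sox4 (-0.29) fell by less. Bcl11b was not called without the block, without KO49 or without KO51. Gata3 (-0.14), Tcf7 (0.25) and Lef1 (0.26), the early specification factors, did not pass the test, with adjusted p of 0.293, 0.103 and 0.0584, though DESeq2 called Tcf7 (adjusted p = 0.0405).

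E proteins bind DNA as dimers and are held off by Id proteins, which pre-TCR signaling induces. Id3 had 47.7, 45.2 and 50.4 CPM in DN3 and 123, 133 and 127 CPM in DN4 (log2 fold change 1.42, SE 0.092, adjusted p = 6.49e-06), and Id2 rose by 1.53. The E proteins Tcf3 (-0.1, adjusted p = 0.42) and Tcf12 (-0.19, adjusted p = 0.133) did not pass the test, and Tcf4 fell by 0.46. Without the block neither Id2 nor Tcf4 was called, and without KO45 Tcf12 was called (-0.27, adjusted p = 0.04).

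Most of the EGR, NAB and MAP kinase feedback genes tested rose. Of 16 genes, 11 rose and 1 fell (75%, against 35.8% of all genes), with a median of 1.87. Egr1 had 15.5, 13.7 and 21.02 CPM in DN3 and 105, 83.1 and 69.2 CPM in DN4 (log2 fold change 2.35, SE 0.19, adjusted p = 2.03e-05). Egr2 had 1.54, 0.982 and 2.28 CPM in DN3 and 20.7, 22.96 and 14.8 CPM in DN4 (log2 fold change 3.55, SE 0.31, adjusted p = 3.86e-05). Egr3 had 0.904, 0.701 and 0.621 CPM in DN3 and 13.4, 24.9 and 7.47 CPM in DN4 (log2 fold change 4.19, SE 0.33, adjusted p = 1.92e-05). All 3 immediate early factors were higher in each DN4 library than in any DN3 library. At its DN3 levels Egr3 passed the filter on low counts through DN4 alone, so its direction was set in advance. Nr4a3 (4.11) and Nr4a1 (2.5), nuclear receptors switched on by antigen receptors, rose as well. The phosphatases Dusp6 (2.03), Dusp4 (1.27) and Dusp2 (0.96) and the Sprouty proteins Spry4 (2.02) and Spry2 (1.73), which damp this pathway, rose too, and Spred1 fell (-0.55). Without KO49 or without KO51 no gene of this group was called lower.

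Of 15 genes of the pre-TCR, CD3 chains and proximal kinases, 7 rose and 2 fell (60%, against 35.8% of all genes). Ptcra, the pre-TCRα chain, had 146, 152 and 118 CPM in DN3 and 33.8, 44.02 and 54.99 CPM in DN4 (log2 fold change -1.67, SE 0.17, adjusted p = 7.56e-05), and Cd3g fell by 1.03. Fyn, a Src family kinase, rose from 81.3, 77.4 and 88.8 to 194, 162 and 165 CPM (log2 fold change 1.07, SE 0.093, adjusted p = 3.43e-05), and the kinases Prkcq (1.05) and Zap70 (0.97) rose. Lck, whose promoter drives the Cre of these mice, had 1404, 1218 and 1204 CPM in DN3 and 1546, 1056 and 1247 CPM in DN4 (log2 fold change -0.01, SE 0.099, adjusted p = 0.974), and Syk, Cd3e, Cd3d and Lat had values of 0.55, -0.17, -0.1 and -0.15 that did not pass. Without KO51, Syk was called (1.0, adjusted p = 0.00807).

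Recombination genes were called about as often as all genes, 5 of 13 (38.5% against 35.8%). Dntt, the terminal transferase that adds bases at V(D)J joins, fell from 1759.8, 1649.8 and 1805 to 1122, 881 and 1179 CPM (log2 fold change -0.72, SE 0.098, adjusted p = 0.000514), and the polymerase Polm, of the same family, rose from 10.7, 9.26 and 8.49 to 43.2, 42.3 and 25.1 CPM (log2 fold change 1.93, SE 0.17, adjusted p = 3.15e-05). Rag1 had 703, 739.7 and 639 CPM in DN3 and 1652, 548 and 742 CPM in DN4 (log2 fold change 0.34, SE 0.25, adjusted p = 0.316), so it was far higher in KO45 than in the other mice in DN4, as the DP markers were. Rag2 had a value of -0.18 (adjusted p = 0.497), and in all 2 rose and 3 fell. Both values turned on 1 mouse, as Rag2 was called lower without KO45 (-0.56, adjusted p = 0.00495) and Rag1 was called higher without KO49 (0.73, adjusted p = 0.0229) and had a value of -0.11 without KO45 (adjusted p = 0.597).

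Segments of the receptor genes were grouped by locus and kind. These groups were chosen after their values were seen. For the α chain, the constant gene Trac rose from 12.6, 15.8 and 13.4 to 286, 142 and 159.6 CPM (log2 fold change 3.78, SE 0.21, adjusted p = 3.06e-06), again with KO45 highest, and of 108 Trav segments 15 passed the filter on low counts, 13 of them called higher and 2 lower. A segment that passed only through the stage where it is high had to differ, so these counts are a description. At the β locus 15 of 21 Trbv segments rose and none fell (median 0.88), whereas 6 of 7 Trbj1 segments fell (median -0.72) and 1 of 6 Trbj2 segments fell, where 35.8% of all genes were called. The constant genes Trbc1 (0.31) and Trbc2 (0.51) rose slightly. At the γ locus all 4 constant genes fell (median -2.06), as did 3 of 3 Trgj segments (median -2.52). Tcrg-C1 had 547, 463 and 373 CPM in DN3 and 86.5, 133 and 119 CPM in DN4 (log2 fold change -2.04, SE 0.17, adjusted p = 2.96e-05). Trdc, the δ constant gene, had 445, 345 and 348 CPM in DN3 and 363, 473 and 479 CPM in DN4 (log2 fold change 0.21, SE 0.14, adjusted p = 0.285). Segments and γ constant genes are close in sequence, so reads could be divided among them.

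Co-receptors and other genes of the immature single positive and DP stages rose in 14 of 18 cases and fell in 3 (94.4%, against 35.8% of all genes), with a median of 1.65. Cd8a had 29.6, 40.5 and 27.2 CPM in DN3 and 1177, 344 and 458 CPM in DN4 (log2 fold change 4.17, SE 0.34, adjusted p = 2.58e-05). Cd4 had 10.9, 7.71 and 5.59 CPM in DN3 and 697, 67.9 and 144 CPM in DN4 (log2 fold change 4.89, SE 0.41, adjusted p = 2.78e-05). Cd8b1 rose with Cd8a (3.62). These co-receptor transcripts were highest in KO45, as the DP markers they belong to were, and DN cells by definition lack both proteins on the surface. With KO45 left out, 14 of the 18 were called higher and 3 lower. Cd5, a negative regulator whose level follows receptor signal strength, rose from 28.5, 36.05 and 28.6 to 221, 169.9 and 155 CPM (log2 fold change 2.55, SE 0.14, adjusted p = 2.13e-06). Cd2 (3.16), Cd69 (2.36), Cd6 (1.7), Cd28 (1.0) and Cd27 (0.79) rose too. Cd24a (-0.93), Aqp11 (-0.86) and Arpp21 (-0.58) fell. Cd27 was not called without the block (adjusted p = 0.0715).

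Cytokine receptor genes moved in both directions. Of 14 tested, 7 rose and 6 fell (92.9%, against 35.8% of all genes), and the 6 include Il2ra, on which the gate was set. Il7r, the IL-7 receptor α chain on which DN3 cells depend, fell from 166, 124 and 104 to 62.5, 37.6 and 46.2 CPM (log2 fold change -1.44, SE 0.11, adjusted p = 2.03e-05). Il2rb, Il6ra (5.86), Il4ra (3.44), the common γ chain Il2rg (0.82) and the kinases Jak1 (0.6) and Jak3 (0.6) rose. Socs2 (-3.96), Cish (-1.13) and Socs3 (-0.9), inhibitors that STAT factors induce, fell with Stat5a (-0.57), while Socs1 (0.27, adjusted p = 0.103) did not pass.

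Migration and adhesion genes rose in 9 of 13 cases and fell in 3 (92.3%, against 35.8% of all genes), with a median of 1.6. Klf2, the factor that drives S1pr1 and other egress genes in mature T cells, had 7.59, 4.63 and 4.66 CPM in DN3 and 81.6, 121 and 60.1 CPM in DN4 (log2 fold change 3.88, SE 0.21, adjusted p = 2.23e-06). Ccr7 had 5.06, 4.07 and 2.17 CPM in DN3 and 66.6, 64.1 and 38.4 CPM in DN4 (log2 fold change 3.91, SE 0.16, adjusted p = 3.46e-07), and Ccr9, a receptor for CCL25 made in the thymus, rose by 1.6. Both integrin chains that pair as αEβ7 rose, Itgae by 3.1 and Itgb7 by 3.78. Itga4 (-0.68) and Itgb1 (-0.44) fell, and Cxcr4 (-0.01, adjusted p = 0.927) did not pass. Klf2 and S1pr1 were highest in KO49 and lowest in KO51, and both are expressed by B cells too.

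GIMAP GTPases, encoded side by side on chromosome 6 and needed for lymphocyte survival, rose in 7 of 8 cases (87.5%, against 35.8% of all genes) with a median of 1.98. Gimap3 had 5.51, 0.701 and 0.828 CPM in DN3 and 168, 202 and 130.0 CPM in DN4 (log2 fold change 6.06, SE 0.38, adjusted p = 4.91e-06). Gimap4 had 4.97, 1.54 and 1.35 CPM in DN3 and 167, 217 and 91.6 CPM in DN4 (log2 fold change 5.82, SE 0.27, adjusted p = 7.99e-07). Gimap8 (3.65), Gimap6 (2.2), Gimap7 (1.76), Gimap5 (1.48) and Gimap1 (0.64) followed, and Gimap9 was at 0.16 (adjusted p = 0.188). In DN4 all 8 were lowest in KO51, and Gimap3, Gimap4, Gimap5, Gimap7 and Gimap8 had the order of the B cell markers, whose part in these rises was not tested. Without KO49 the median was 1.71. The family's members share sequence, so their separate values are uncertain.

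**Figure D4:**
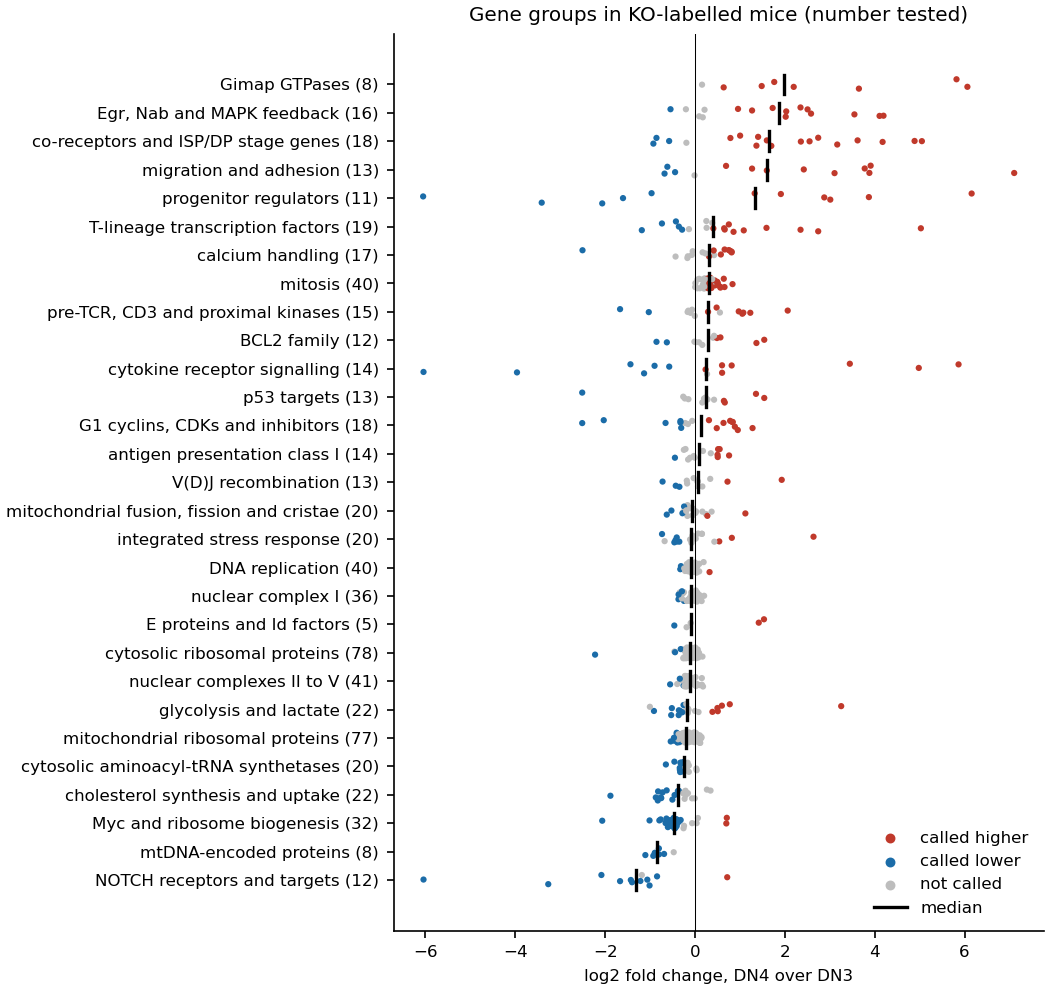
Log2 fold change from DN3 to DN4 in the KO-labelled mice for the tested members of 29 gene groups, ordered by median (black bars); red and blue points are members called higher and lower and grey points those not called. NOTCH genes (median -1.31), mtDNA-encoded genes (median -0.85) and ribosome biogenesis genes (median -0.46) lay lowest, and GIMAP genes (median 1.98) and EGR, NAB and feedback genes (median 1.87) highest.

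The main survival genes of the BCL2 family moved in opposite directions. Bcl2 fell from 152, 138 and 125 to 92.7, 99.7 and 76.97 CPM (log2 fold change -0.63, SE 0.088, adjusted p = 0.000625), and Bcl2l1, which encodes BCL-XL, rose from 27.03, 32.1 and 25.1 to 111, 54.6 and 59.6 CPM (log2 fold change 1.37, SE 0.20, adjusted p = 0.000842), highest in KO45. Mcl1 (0.57) and the proapoptotic Bcl2l11 (0.49) and Bbc3 (1.54), which encode BIM and PUMA, rose. Of 12 family members tested, 4 rose and 2 fell (50%, against 35.8% of all genes), and Bcl2l11 was not called without the block (adjusted p = 0.0702). Among 13 p53 targets, 4 rose and 1 fell (38.5%, against 35.8% of all genes). Cdkn1a, the p21 inhibitor, fell from 34.2, 34.8 and 28.99 to 4.09, 7.31 and 6.098 CPM (log2 fold change -2.51, SE 0.20, adjusted p = 2.31e-05), while Zmat3 (1.36), Sesn1 (0.66), Trp53inp1 (0.64) and Bbc3 rose.

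G1 regulators changed in 15 of 18 cases, 9 up and 6 down (83.3%, against 35.8% of all genes). Cdk4 fell slightly (-0.31), and Cdk6 fell from 874, 792 and 870.1 to 145, 219 and 276 CPM (log2 fold change -2.03, SE 0.16, adjusted p = 2.03e-05). D cyclins moved apart, Ccnd2 from 312, 283 and 242 to 162, 192 and 177 CPM (log2 fold change -0.66, SE 0.10, adjusted p = 0.00125) and Ccnd3, the D cyclin of β-selected cells, from 282, 404 and 441 to 667, 644 and 739 CPM (log2 fold change 0.89, SE 0.12, adjusted p = 0.000427). The inhibitors Cdkn2d (1.28), Cdkn2c (0.84) and Cdkn1b (0.63) and the pocket proteins Rbl2 (0.95) and Rb1 (0.78) rose. Without the block, 6 rose and 3 fell, and 3 fell without KO45 or without KO49, and in none of these was Cdk4 called.

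The mitosis genes that were called all rose, by little. All 40 fitted changes were above 0, 21 of the 40 passed the test (52.5%, against 35.8% of all genes) and the median was 0.3. Mki67 had 449, 612 and 679 CPM in DN3 and 707, 828 and 1031 CPM in DN4 (log2 fold change 0.56, SE 0.087, adjusted p = 0.00108). Cenpf had 50.1, 70.1 and 65.2 CPM in DN3 and 96.01, 91.3 and 102 CPM in DN4 (log2 fold change 0.66, SE 0.11, adjusted p = 0.00211). Every DN4 library lay above every DN3 library for both genes, and KO45 was lowest at both stages for Mki67. Of the mitotic kinases and cyclins, Cdk1 (0.21), Plk1 (0.33), Ccnb1 (0.26) and Cdc20 (0.37) had adjusted p of 0.142, 0.0266, 0.0709 and 0.00801. Without KO49 Cdk1 and Ccnb1 were called, without KO51 neither Plk1 nor Cdc20 was, and without KO45 Plk1 was not. Without the block 3 of the 40 were called, Mki67 not among them (adjusted p = 0.0835), and with KO51, KO45 or KO49 left out 5, 11 and 29 were called. Of 40 DNA replication genes, 1 rose and 3 fell (10%), with a median of -0.09, and none was called without the block or without KO45. The difference between the 2 groups was not tested. Pcna (0.03), Mcm2 (-0.16), Mcm5 (-0.07) and Rrm2 (0.32) had adjusted p of 0.818, 0.204, 0.592 and 0.0205, and Rrm2 was not called without KO51 either.

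Most genes of Myc and ribosome biogenesis that were tested fell. Myc had 429, 438 and 496 CPM in DN3 and 152, 244 and 306 CPM in DN4 (log2 fold change -1.01, SE 0.14, adjusted p = 0.000582), and Mycn fell by 2.07. Of 32 genes of Myc and ribosome biogenesis, 25 fell and 2 rose (84.4%, against 35.8% of all genes), with a median of -0.46, and the 2 that rose, Mxd1 (0.71) and Mxd4 (0.7), encode antagonists of Myc. Npm1 had 1416, 2057 and 2067 CPM in DN3 and 847, 1353 and 1496 CPM in DN4 (log2 fold change -0.6, SE 0.097, adjusted p = 0.00131). Nucleolar Ncl (-0.6), Fbl (-0.54), Gnl3 (-0.79) and Dkc1 (-0.65) fell by similar amounts. In each mouse the DN4 value of Npm1 lay below the DN3 value, but the stages overlapped between mice, and without the block 4 of the 32 were called. Odc1, a Myc target, fell by 0.32 but was not called without the block, without KO45 or without KO49. Cytosolic ribosomal protein genes themselves changed less, with 3 of 78 called lower, none higher and a median of -0.11.

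Lipid and translation enzymes fell where they were called. Of 22 genes of cholesterol synthesis and uptake, 12 fell and none rose (54.5%, against 35.8% of all genes), with a median of -0.37. Sqle, the squalene epoxidase of the pathway, fell from 51.9, 63.4 and 93.6 to 25.8, 41.2 and 63.9 CPM (log2 fold change -0.72, SE 0.11, adjusted p = 0.00124), and Idi1 (-0.87), Fdps (-0.83) and Hsd17b7 (-0.82) fell as well. Without the block 2 of the 22 were called, none of these 4 among them, and Fdps was not called without KO51 (adjusted p = 0.0522). Cytosolic aminoacyl-tRNA synthetases fell in 11 of 20 cases (55%), with a median of -0.25, 1 without the block, 4 without KO45 and 5 without KO49.

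Glycolysis genes were divided, 6 up and 8 down of 22 (63.6%, against 35.8% of all genes). Hk2 fell from 23.1, 33.7 and 40.6 to 11.1, 18.6 and 22.6 CPM (log2 fold change -0.91, SE 0.13, adjusted p = 0.000824), and Ldha by 0.28, while Pkm had -0.2 (adjusted p = 0.0982). Slc16a3, a lactate exporter, rose from 0.542, 0.421 and 0.414 to 2.16, 5.78 and 7.04 CPM (log2 fold change 3.25, SE 0.48, adjusted p = 0.000854), and Pfkp (0.77), Ldhb (0.6) and the glucose transporters Slc2a1 (0.51) and Slc2a3 (0.5) rose. At its DN3 levels Slc16a3 passed the filter on low counts through DN4 alone, where it had to be higher. Without the block, 5 rose and 2 fell, and the number that fell was 4 without KO45 and 5 without KO49. Hk2, Ldha and Ldhb lost their calls without the block, Ldha without KO45 or KO49, and Slc2a1 without KO49 or KO51.

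Genes of the integrated stress response, a program that mitochondrial damage can start, did not move in one direction. Of 20 tested, 3 rose and 6 fell (45%, against 35.8% of all genes), with a median of -0.08, and without the block 1 rose and 1 fell, and without KO45 3 rose and 3 fell. Atf4 had 189, 229 and 215 CPM in DN3 and 193, 248 and 222 CPM in DN4 (log2 fold change 0.07, SE 0.076, adjusted p = 0.527). Asns had 5.51, 12.3 and 5.07 CPM in DN3 and 2.45, 11.9 and 8.52 CPM in DN4 (log2 fold change -0.11, SE 0.33, adjusted p = 0.82), with KO49 highest at both stages. Atf5 (-0.09) and Trib3 (-0.06) did not pass either. Phgdh (-0.73), Shmt2 (-0.41), Psat1 (-0.4) and Mthfd2 (-0.35), enzymes of serine and one-carbon metabolism, fell, but Psat1 and Mthfd2 were not called without the block, without KO45 or without KO49. The cystine transporter Slc7a11 had 2.35, 2.95 and 2.59 CPM in DN3 and 50.9, 6.29 and 8.201 CPM in DN4 (log2 fold change 2.64, SE 0.55, adjusted p = 0.00531), a rise carried mainly by KO45.

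Transcripts of mitochondrial DNA (mtDNA) took a smaller share of counts in DN4. The 13 protein-coding mtDNA genes held 1.06%, 0.833% and 1.17% of the counts in DN3 and 0.532%, 0.563% and 0.681% in DN4, with no overlap. The mean log2 change of this share was -0.78 ± 0.21 (SD, n = 3 mice), lower in 3 of 3 mice, and an exact two-sided permutation test over the signs of 3 pairs gave p = 0.25, the smallest it can give. Of the 8 genes that passed the filter on low counts, 7 fell (87.5%, against 35.8% of all genes), all 8 had values below 0 and the median was -0.85. mt-Co1 had 5258, 4007 and 5268 CPM in DN3 and 2793, 2973 and 3189.7 CPM in DN4 (log2 fold change -0.69, SE 0.12, adjusted p = 0.00224). mt-Nd4 had 518, 453 and 707 CPM in DN3 and 225, 287 and 374 CPM in DN4 (log2 fold change -0.93, SE 0.11, adjusted p = 0.000199). The stages did not overlap in either gene. mt-Nd6 had 26.4, 37.2 and 59.01 CPM in DN3 and 9.37, 15.4 and 38.2 CPM in DN4 (log2 fold change -1.11, SE 0.17, adjusted p = 0.00114), the one gene here encoded on the other strand, where it overlaps mt-Nd5. Its stages overlapped, and without the block it was not called (adjusted p = 0.218). mt-Co2 had no more than 2.28 CPM in any library and a value of -0.47 (adjusted p = 0.397), and mt-Co3 was among the 5 genes that did not pass the filter. Parts of mtDNA have near-identical copies in the nuclear genome, between which counting could divide reads, so these levels are uncertain. A pair of unprocessed pseudogenes side by side on chromosome 1, named after their values were seen, also fell. Gm10925 had 24.1, 29.9 and 31.5 CPM in DN3 and 9.37, 13.5 and 10.4 CPM in DN4 (log2 fold change -1.36, SE 0.16, adjusted p = 0.000211), and Gm28437 fell by 0.95 (adjusted p = 0.00247).

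Nuclear genes of the respiratory chain changed by less. Of 36 complex I genes 4 fell and none rose, with a median of -0.09, and of 41 genes of complexes II to V 4 fell and none rose, with a median of -0.12. Ndufc2 (-0.37), Ndufa12 (-0.37), Sdhd (-0.34) and Atp5g1 (-0.55) were among them. Mitochondrial ribosomal protein genes fell in 15 of 77 cases, with a median of -0.19. None of these genes was called without the block, and the mitochondrial ribosomal genes called were 2 without KO45, 6 without KO49 and 2 by DESeq2. The complex I genes called were 1 without KO45, 2 without KO49 and 1 by DESeq2, and those of complexes II to V 1, 1 and 3. The shares called, 11.1%, 9.76% and 19.5%, were below the 35.8% of all genes.

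In the group of fusion, fission and cristae genes, to which OPA1 belongs, 2 of 20 rose and 4 fell (30%, against 35.8% of all genes), none of them without the block, and 1 fell without KO45 or without KO49. The cristae proteins Phb (from 108, 141 and 147 to 61.5, 96.7 and 102 CPM, log2 fold change -0.63, SE 0.092, adjusted p = 0.000773), Chchd6 (-0.53) and Phb2 (-0.28) fell, as did the fission GTPase Dnm1l (-0.24), which was not called with any 1 mouse left out. Chchd10 (1.12) and Fis1 (0.27) rose. Mfn1 (-0.05, adjusted p = 0.742), Mfn2 (0.24, adjusted p = 0.0853), Immt (-0.06) and the OPA1 proteases Oma1 (-0.17) and Yme1l1 (-0.09) did not pass.

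Of 17 calcium genes, 8 rose and 1 fell (52.9%, against 35.8% of all genes). The number that rose was 5 without KO45, and 6 without the block or by DESeq2. Mcub, the inhibitory subunit of the mitochondrial calcium uniporter, was the one that fell. Mcub had 63.9, 59.2 and 41.6 CPM in DN3 and 8.701, 10.4 and 9.78 CPM in DN4 (log2 fold change -2.5, SE 0.16, adjusted p = 6.88e-06). The pore Mcu rose from 11.9, 16.7 and 15.2 to 28.1, 22.3 and 24.3 CPM (log2 fold change 0.78, SE 0.18, adjusted p = 0.00967) but was not called without KO45 (0.55, adjusted p = 0.0515). Atp2a3 (0.81), a calcium pump of the endoplasmic reticulum, the store-operated channel Orai2 (0.81), its sensors Stim1 (0.57) and Stim2 (0.31) and Itpr3 (0.75) rose as well. Smdt1 (0.23), Micu2 (0.17), Orai1 (0.42) and Itpr1 (-0.16) did not pass.

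Among 14 class I antigen presentation genes, 5 rose and 1 fell, 42.9% against 35.8% of all genes. H2-K1 had 844, 755 and 537 CPM in DN3 and 993, 1503 and 652 CPM in DN4 (log2 fold change 0.5, SE 0.14, adjusted p = 0.0227), with KO49 highest in DN4. Nlrc5, which activates class I genes, rose by 0.76, Tap1 by 0.51 and Tapbp by 0.51, and B2m, the invariant light chain, had -0.25 (adjusted p = 0.0779). Without the block 1 of the 14 was called, and H2-K1 was not called without KO49 either (0.26, adjusted p = 0.16).

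The same passage was then set beside that of Wt mice, to ask whether any gene changed differently. In the 3 paired Wt mice, 2340 of 12531 genes were called (18.7%), 1522 higher and 818 lower. Of the 4414 genes called in KO-labelled mice that were tested in Wt mice, 4203 had the same sign there (95.2%) and 2001 were called, which is 45.3% of the genes called in KO-labelled mice and 90% of the 2223 called in Wt mice that were tested in KO-labelled mice, and none was called in both with opposite signs. Across 12253 genes the log2 fold changes had Pearson's r = 0.93 and Spearman's rho = 0.77, as a description over genes, which are not independent. The common coefficient of variation between replicates was 0.113 in the KO-labelled fit and 0.209 in the Wt fit. In the Wt DN3 library of WT05, 10 genes held 42.5% of the counts, against 3.89% to 4.32% in the other DN3 libraries.

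With the filter on low counts, no gene passed edgeR's test of the difference. In the interaction of stage and genotype over 12 libraries, 0 of 13323 genes were called by edgeR (0%), 685 had an unadjusted p under 0.05 (5.14%) and the smallest adjusted p was 0.901. DESeq2 called 3 genes (Notch3, Nwd1 and C230085N15Rik) and limma-voom none, and without the filter on low counts edgeR called 27, among them Notch3, Cd4, Rag1 and Arpp21. Leaving out 1 mouse at a time, edgeR called none, but the number of genes at an unadjusted p under 0.05 moved. It was 364 without KO51, 391 without KO45, 533 without WT05, 582 without KO49, 990 without WT48 and 1542 without WT46 (2.65% to 11.4%). The smallest p belonged to Notch3, which fell by 2.08 in KO-labelled and by 3.21 in Wt mice (difference 1.13, SE 0.167, unadjusted p = 7.17e-05, adjusted p = 0.901). Its counts were 7430, 2785 and 3409 in DN3 and 2035, 1118 and 938 in DN4 of the KO-labelled mice, and in Wt mice 1652, 5380 and 4268 in DN3 and 663, 594 and 550 in DN4. Nwd1 (-0.79 in KO-labelled, -2.59 in Wt mice), Gm10925 (-1.36 and -0.05) and Glipr2 (1.12 and 2.33) came next among genes tested in both, none of them past the threshold of edgeR. Gm28437, the pseudogene beside Gm10925, changed by -0.95 in KO-labelled and 0.21 in Wt mice (edgeR's interaction term, unadjusted p = 0.000998, adjusted p = 0.901).

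The 4 marker genes moved in the same direction in both genotypes. Bst1 changed by -4.31 in KO-labelled and -4.82 in Wt mice (unadjusted p of the difference 0.128), Erg by -6.05 and -5.81 (0.662), Pim2 by 2.45 and 2.78 (0.153) and Nab2 by 2.58 and 2.9 (0.546). None of these differences passed. The mtDNA-encoded genes had a median of -0.85 in KO-labelled and -0.25 in Wt mice, where none was called, and 0 of 8 had an unadjusted p under 0.05 for the difference. The share of mtDNA transcripts in Wt mice was 1.94%, 1.41% and 1.24% in DN3 and 1.66%, 1.79% and 1.29% in DN4 of WT05, WT46 and WT48. At both stages it was higher in every Wt library than in any KO-labelled library of that stage. The mitosis genes had medians of 0.3 and -0.02, with 1 of 40 at such a p. Other groups held more genes at such a p, 5 of 12 NOTCH genes, 6 of 18 co-receptor and ISP or DP stage genes, 5 of 11 DP markers, 4 of 10 DN3 markers, 4 of 13 migration genes and 4 of 13 recombination genes, against 5.14% of all genes. None of these genes had an adjusted p under 0.05 in that fit. The groups share members, DP markers were highest in KO45, and the part of either in these counts was not tested. A p that misses the threshold does not show that the genotypes act alike.

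**Figure D5:**
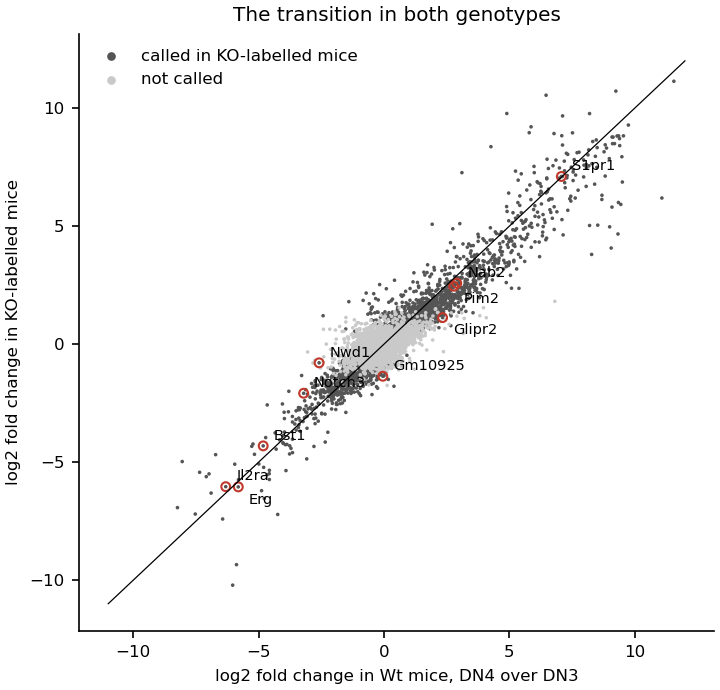
Log2 fold change from DN3 to DN4 in KO-labelled mice against that in Wt mice, 1 point per gene tested in both fits, with the line of equal change; dark points were called in KO-labelled mice. The 4 markers lie near the line (Pearson's r = 0.93 across 12253 genes), and Notch3, Nwd1, Gm10925 and Glipr2, circled, have the smallest interaction p among the genes tested in both.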

How the data were processed

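RNA was measured in 13 libraries of sorted DN3 and DN4 thymocytes. The authors trimmed reads with Cutadapt, aligned them to mm10 with STAR and counted them per gene with featureCounts, per the labels and the study's methods, which also name DESeq2 and deepTools; versions, gene annotation and strand setting are not given in the sources used here. As deposited, each value is a raw count of reads for a gene and library, and no row holds unassigned reads. Libraries held 5926848 to 14148661 counts. Precision rests on 3 mice per group, and p-values measure the spread between these mice.

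Gene types and positions came from the GRCm38 annotation, in which 47310 of 47937 identifiers were found without regard to version. Counts were analyzed with edgeR 4.0.16 (R 4.3.3): filterByExpr with a minimum count of 10, TMM scaling and the quasi-likelihood test with the mouse as a block, because the labels give 1 number to both libraries of an animal. The Benjamini-Hochberg threshold was 0.05. Over 13323 genes, deviations of the 2 libraries of a mouse from their group means correlated at 0.46 (KO45), 0.221 (KO49), 0.326 (KO51), 0.189 (WT05), 0.0582 (WT46) and 0.172 (WT48). For WT46 the highest correlation with another mouse of its genotype, 0.0598, was no lower, so these values do not bear out that pair. For each other mouse the highest such correlation was at most 0.0202. No libraries agreed within sampling noise. Wt mice with both stages were fitted in the same way, and 12 libraries entered 1 fit to test whether the stage effect differed by genotype. The study names DESeq2 (1.42.0 here), which was an alternative beside limma-voom (limma 3.58.1), other scaling and filters, no block and each mouse left out. The fits were tested on simulated data, where unchanged genes had calibrated p-values. With few changed genes the blocked fit made more false calls than its threshold allows, and with many genes changed 2-fold it did not. Counts were simulated with the spread that the fit itself had estimated. Many genes called here changed by less than 2-fold, so the simulation does not give the share of false calls among them.

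Members and gene lists were chosen with earlier results of these data known. Genes named were Opa1, the 4 markers, the 12 largest rises and falls among protein-coding genes called, not overlapping and at 10 CPM or more, preset core members of each list with up to 4 called members of largest change, and the 5 smallest interaction p. Other members were named after their values were seen. Lists were described by counts and medians, with no test. Some members of the lists are counted but not reported by name here.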

Additional observations from a re-analysis of the deposited data

Results flagged for a closer look

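For 2 of the named genes the change from DN3 to DN4 had the same sign in each KO-labelled mouse and the opposite sign in each paired Wt mouse. Both had an unadjusted p of the difference under 0.05. For Dnm1l, the GTPase of mitochondrial fission, the log2 fold change was -0.24 in KO-labelled and 0.13 in Wt mice (edgeR's interaction term, unadjusted p = 0.0248). For B2m, the light chain of class I molecules, it was -0.25 in KO-labelled mice, where it did not pass the test, and 0.54 in Wt mice (edgeR's interaction term, unadjusted p = 0.0287). Neither difference passed after adjustment over 13323 genes, where the smallest adjusted p was 0.901.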

How the results depend on the processing

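The number of genes called between DN3 and DN4 depended on the pairing and on a limit on size. Without the mouse as a block 2338 genes were called (1414 higher and 924 lower) in place of 4499, and all 2338 were among the 4499. With a log2 fold change of at least 1, 1647 were called (1036 higher and 611 lower), by construction fewer. Fitting 12 libraries together left 1316 lower, and the cause was not tested. Leaving out 1 mouse gave 3426 to 3916 genes, of which 1847 to 2151 were higher and 1476 to 1765 lower. DESeq2 called 3588 and limma-voom 4712. With no filter on low counts 5288 were called (2986 higher and 2302 lower). With at least 10 counts required in every library 3982 were called (1918 higher and 2064 lower), so more genes fell than rose. Without genes that were 3 times higher in DN4 of KO49 than of KO51, an alternative chosen after seeing the data, 4216 were called. In the interaction 27 genes were called without a filter on low counts and 3 by DESeq2 (Notch3, Nwd1 and C230085N15Rik), against 0 otherwise, including without the block. The Wt count of 2340 ranged from 1021 (without WT48) to 2820 (without WT46). The stage's share of variance was 72.8% with a prior count of 0.5 and 87% over the 500 most variable genes. The fall in mtDNA share ranged from -0.89 to -0.67 on leaving out 1 mouse. Of 207 named values, 64 lost their call without the block and 14 under DESeq2, 66 calls were lost over the 3 fits that each left out 1 mouse, and none changed sign past a threshold in any setting run.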
